A study of Mus musculus with 16 samples.

Results

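TRAV7-4, TRAV7-5 and TRAV7-6, with their duplicated copies TRAV7D-4, TRAV7D-5, TRAV7D-6, TRAV7N-4, TRAV7N-5 and TRAV7N-6, are variable (V) gene segments of the mouse T cell receptor (TCR) alpha chain. A rearranged sequence was counted as theirs when the best-scoring V segment of its row was 1 of these 9. That held for 6557 of the 78671 rows in the 8 libraries of unsorted TCRab+ CD8 T cells, and for 8 of the 9 segments, since TRAV7D-6 was the best hit of no row. The unsorted libraries came from Themis+/+Foxp3-GFP and Themis-/-Foxp3-GFP mice on the C57BL/6 background. The Themis-/- line carried a germline deletion of Themis, a T cell protein that takes part in TCR signalling during thymic selection, and both lines carried the Foxp3-GFP reporter allele. From each genotype, CD4-CD8+ single-positive (SP) thymocytes and CD8+ lymph node (LN) T cells gave 2 libraries each, which makes 4 groups. The labels state no age for the mice. The other 8 of the 16 libraries held sorted Va3.2+ cells and are described only in the closing section. Lymph nodes of several mice of a genotype were pooled according to the published methods, while the series' design text speaks of individual mice, so p-values measure the spread between these libraries.

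Each alpha chain gene is made in the thymus by joining 1 V segment to 1 joining (J) segment. The joint encodes the third complementarity determining region (CDR3), the loop that lies over the peptide held by an MHC molecule. At the joint, bases can be trimmed from either segment, inserted without a template (N nucleotides), or copied from the palindrome of an untrimmed end (P nucleotides). A T cell can go on joining its alpha locus until it is positively selected, and later joins use V and J segments that lie farther apart on the chromosome. TRAJ segments are numbered downwards from TRAJ61, the nearest to the V segments, so a high TRAJ number means a J segment close to the V genes.

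The germline 3′ ends are shown because they set what each segment can contribute to the CDR3. Each runs from the conserved cysteine codon tgt to the last base of the V gene (GENCODE M21, GRCm38), and the capitals mark the bases that fall in CDR3 codon 5, which are bases 13 to 15.
TRAV7-4 and TRAV7D-4: tgtgcagctagtGAGca
TRAV7N-4: tgtgcagttagtGAGca
TRAV7-5, TRAV7-6, TRAV7D-5, TRAV7N-5 and TRAV7N-6: tgtgcagtgagcA
Segments with the number 4 thus end 4 bases later than those with the numbers 5 and 6, at 17 against 13 bases, and carry a whole glutamate codon, GAG, at position 5. In the segments numbered 5 and 6 only the first base of that codon, an A, is in the germline.

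All 8 segments in use lie on the plus strand of chromosome 14 and are annotated as TR_V_gene in GENCODE M21. The number 4 copies are TRAV7D-4 at 52769753 to 52770392, TRAV7N-4 at 53091346 to 53091875 and TRAV7-4 at 53461099 to 53461738. The number 5 copies are TRAV7D-5 at 52835858 to 52836387, TRAV7N-5 at 53146919 to 53147448 and TRAV7-5 at 53530786 to 53531313. The number 6 copies are TRAV7N-6 at 53324632 to 53325208 and TRAV7-6 at 53716716 to 53717291. TRAV7D-6 lies at 53020459 to 53020991 in RefSeq (GRCm38.p6). TRAV7-6 is the nearest to TRAJ61, at 437.7 kb, and TRAV7D-4 the farthest, at 1384.6 kb.

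How well the copies can be told apart differed by number. Over the 262 bases that end just before CDR3 codon 5, TRAV7D-5 and TRAV7N-5 had 0 mismatches and TRAV7-4 and TRAV7D-4 had 1. TRAV7N-4 differed from TRAV7D-4 by 3 bases, TRAV7-6 from TRAV7N-6 by 9, and TRAV7-5 from both other number 5 copies by 13. In the files, 789 of the 6557 rows (12.03%) had a tied best V score, and 744 of these were ties of TRAV7D-5 with TRAV7N-5. These 744 were all of the rows assigned to TRAV7D-5, so the use of TRAV7D-5 and of TRAV7N-5 cannot be told apart with certainty. No row was tied with a V segment outside the 9. Among rows assigned to TRAV7N-4, 75 of 129 began with its own tgtgcagtt and 46 with the tgtgcagct of the other number 4 copies, and 193 of 1493 TRAV7D-4 rows began with tgtgcagtt. Assignment between number 4 copies is therefore uncertain for part of the rows, while numbers 4, 5 and 6 differed from each other by at least 36 of the 262 bases.

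The unsorted libraries held 57455 to 146191 reads, and sequences seen in a single read made up 14.8% to 21.2% of their clonotypes, a clonotype being 1 distinct CDR3 nucleotide sequence in 1 library. Reads were counted without molecular identifiers, so a read count is a count of PCR products. Themis itself cannot be read from TCR sequences, and the genotypes rest on the labels. Reads of the invariant chain of NKT cells (TRAV11 with TRAJ18) were 0.354% and 0.419% of the Themis-/- thymus libraries, 0.0553% and 0.116% of the Themis+/+ thymus libraries and at most 0.0418% of the LN libraries. Their part in the results below was not tested.

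Together the segments supplied 7.42% to 9.07% of the clonotypes of a library. Their share was 8.47% ± 0.49 in Themis+/+ thymus, 8.36% ± 0.36 in Themis-/- thymus, 8.61% ± 0.66 in Themis+/+ LN and 7.49% ± 0.09 in Themis-/- LN (SD, n = 2 libraries each). The 2 Themis-/- LN libraries, at 7.55% and 7.42%, were the lowest of the 8. Over both tissues the share was 7.92% ± 0.55 in Themis-/- and 8.54% ± 0.48 in Themis+/+ libraries (exact two-sided permutation test, 4 against 4, p = 0.114, adjusted p = 0.229 over 8 measures). By reads the shares were 8.24% ± 0.23, 7.52% ± 0.86, 7.71% ± 0.55 and 6.86% ± 0.15 in the same order of groups, and the genotypes again did not differ beyond the spread (p = 0.114 by the same exact test). Fewer cells with a segment and less TCR RNA per cell cannot be told apart in such read shares. Over the 8 libraries, the V segments whose log2 CPM of reads followed theirs most closely were TRAV10 (Pearson r = 0.749), TRAV9-1 (r = 0.684) and TRAV12D-1 (r = 0.683), shares of the same libraries given as a description.

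Use was uneven among the copies. TRAV7-5 was the most used, at 2.21% ± 0.52 of clonotypes (SD, n = 8 libraries) and 1827 clonotypes in all, followed by TRAV7D-4 at 1.92% ± 0.20 and TRAV7-4 at 1.12% ± 0.20. TRAV7D-5 made up 0.918% ± 0.180, TRAV7N-5 0.863% ± 0.217, TRAV7N-6 0.554% ± 0.126, TRAV7-6 0.485% ± 0.086 and TRAV7N-4 0.168% ± 0.044. The order was fixed within libraries at 2 steps, since TRAV7D-4 exceeded TRAV7-4 and TRAV7-6 exceeded TRAV7N-4 in 8 of 8 libraries. TRAV7-4 exceeded TRAV7D-5, and TRAV7N-5 exceeded TRAV7N-6, in 7 of 8. The other 3 neighbouring pairs did not differ beyond their spread: TRAV7-5 and TRAV7D-4 (5 of 8 libraries, difference 0.28 ± 0.70 percentage points), TRAV7D-5 and TRAV7N-5 (4 of 8) and TRAV7N-6 and TRAV7-6 (4 of 8). By reads the order changed, with TRAV7N-5 at 1.71% ± 0.38 of reads against 0.346% ± 0.143 for TRAV7D-5.

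**Figure D1:**
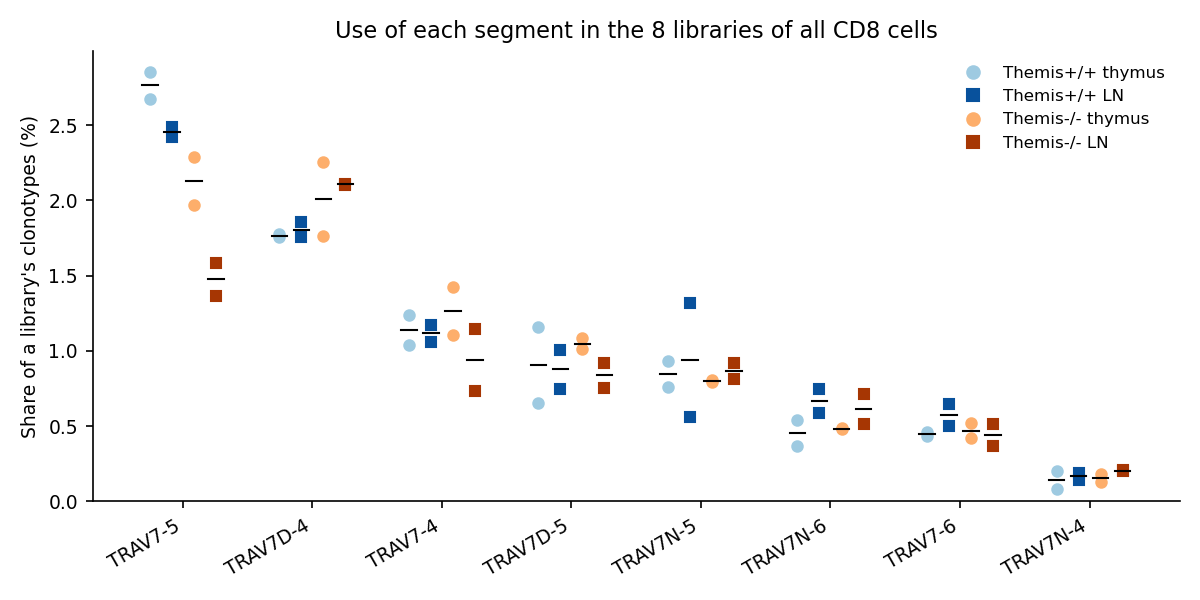
Share of each library's clonotypes (%, vertical axis) assigned to each of the 8 segments in use, 1 point per library, with marker and colour for the 4 groups of 2 libraries. TRAV7-5 lies between 1.37% and 2.29% in the 4 Themis-/- libraries and between 2.42% and 2.86% in the 4 Themis+/+ libraries.

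The first question of the design is what changes without Themis. In LN, 1 of the 8 segments tested was called in its number of clonotypes, TRAV7-5, which fell in Themis-/- cells, against 9 of 108 V segments called in all (8.33%; 5.56% were lower). TRAV7-5 made up 2.42% and 2.49% of clonotypes in Themis+/+ LN, and its share in Themis-/- LN was 1.58% and 1.37%. In thymus it made up 2.68% and 2.86% in Themis+/+ and 2.29% and 1.97% in Themis-/- libraries. All 4 Themis-/- libraries thus lay below all 4 Themis+/+ libraries, a pattern that 4.9% of 102 V segments showed. The log2 fold change in LN was -0.74 (SE 0.23, edgeR quasi-likelihood test, Benjamini-Hochberg adjusted p = 0.0309), a level 0.599 times that of Themis+/+ LN.

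That call was not stable. It was lost, at adjusted p = 0.21 and a log2 fold change of -0.39, when the copies numbered 5 were merged into 1 count, and it was lost when any 1 LN library but Themis+/+ replicate 2 was left out (log2 fold changes of -0.91 to -0.65 over the 4 omissions, adjusted p from 0.0332 to 0.303). In thymus the log2 fold change of TRAV7-5 was -0.46 (SE 0.21, edgeR adjusted p = 0.187), and 0 of the 8 segments were called there, 1 of them having an unadjusted p under 0.05, while 2.78% of all V segments were called. The genotype difference in LN and that in thymus did not differ in edgeR (log2 difference -0.28, adjusted p = 0.978, with 0.926% of V segments called in that interaction).

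By reads, TRAV7-5 stood at 2.43% and 2.28% in Themis+/+ LN and at 1.59% and 1.15% in Themis-/- LN. The log2 fold change was -0.81 (SE 0.35, edgeR adjusted p = 0.166). None of the 8 segments was called by reads in LN, 1 having an unadjusted p under 0.05, against 1.75% of 114 V segments called. None was called in thymus either, with no unadjusted p under 0.05 among them, where 0% of V segments were called, or in the interaction of genotype with tissue (0.877%).

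The other 7 segments showed no call. TRAV7D-4 made up 1.76% and 2.26% of clonotypes in Themis-/- thymus and 2.11% and 2.10% in Themis-/- LN, against 1.76% to 1.86% in the 4 Themis+/+ libraries. Its log2 fold change in LN was 0.22 in clonotypes and 0.39 in reads (edgeR adjusted p = 0.609 and 0.622). Over the 8 segments the log2 fold changes in clonotypes ran from -0.74 to 0.33 in LN, with a median of -0.09, and the median of all V segments tested was 0.04. In thymus they ran from -0.46 to 0.11, with a median near 0. None of the 5 other TRAV7 segments that were tested, those numbered 1 to 3, was called in any of these comparisons.

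Between thymus and LN no segment was called in either genotype, by reads or by clonotypes, and none of the 8 had an unadjusted p under 0.05. For clonotypes 0% of V segments were called in Themis+/+ and 4.63% in Themis-/- cells, and for reads 0% and 2.63%. The largest log2 fold change upwards among the 8 was that of TRAV7N-6 reads in Themis+/+ cells, at 0.341% and 0.501% of reads in thymus and 0.854% and 0.714% in LN. Both LN values lay above both thymus values, with a log2 fold change of 1.04 and an SE of 0.56 (edgeR adjusted p = 0.934). TRAV7D-5 reads had the largest downwards, in Themis-/- cells, from 0.391% and 0.460% of reads in thymus to 0.171% and 0.217% in LN (log2 fold change -1.10, SE 0.66, edgeR adjusted p = 0.447).

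CDR3 position 5 separated the segments by number. Position 1 is the conserved cysteine. Glutamate, an acidic residue, stood there in 40.7% ± 4.4 of number 4 clonotypes (SD, n = 8 libraries), between 34.2% and 46.2%. It stood there in 1.59% of number 5 and 6 clonotypes on average, between 0% and 4.65%, and in 12.4% ± 1.3 of the clonotypes of all other V segments. Of the 1026 number 4 clonotypes with glutamate at position 5, 888 (86.6%) wrote it as gag after an agt codon, as in the germline.

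Methionine, which has a hydrophobic side chain, was the counterpart in numbers 5 and 6. It stood at position 5 in 15.3% ± 1.3 of their clonotypes, between 13.5% and 16.7%, against 0.873% ± 1.026 for number 4 and 3.14% ± 0.61 for all other V segments. Taken apart, number 5 had it in 16.5% ± 3.6 and number 6 in 11.13% ± 7.96, the latter between 4.255% and 29.17%. Methionine has the single codon atg, and the germline of these segments ends in the a of that codon. Of the 612 number 5 and 6 clonotypes with atg, 550 (89.9%) began with the same 13 bases as the germline. Base 13 is the a of atg itself, so it matched in all 612. Whether that a came from the V segment cannot be told from this count. As background, tg is the reverse complement of the last 2 germline bases, ca, which is the form that P nucleotides take. The other TRAV7 segments, most of which end in the same 13 bases, had methionine in 13.04% ± 2.45 of clonotypes. TRAV9N-3, the segment seen by the Va3.2 antibody, and its copy TRAV9D-3 end in tgtgctgtgagcA and together had it in 23.4% ± 4.5.

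The copies of 1 number resembled each other. Glutamate stood at position 5 in 40.1% ± 5.7 of TRAV7-4, 40.2% ± 6.6 of TRAV7D-4 and 50.4% ± 17.1 of TRAV7N-4 clonotypes, the last resting on 62 of 129. Methionine stood there in 16.8% ± 6.9 of TRAV7-5, 17.8% ± 8.0 of TRAV7D-5, 15.9% ± 3.8 of TRAV7N-5, 13.3% ± 13.9 of TRAV7-6 and 9.65% ± 5.11 of TRAV7N-6 clonotypes. These ranges overlapped within each number.

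By genotype and tissue, no measure of position 5 passed its test. Glutamate in number 4 stood at 43.0% and 43.8% in Themis+/+ thymus, 37.2% and 35.4% in Themis-/- thymus, 43.0% and 46.2% in Themis+/+ LN and 42.9% and 34.2% in Themis-/- LN. The highest Themis-/- value, 42.86%, lay just below the lowest Themis+/+ value, 43.0%, and this difference was not tested. How many other residues keep the genotypes apart was not counted. Acidic residues as a whole overlapped in number 4, at 49.2% to 60.2% in Themis-/- and 58.7% to 61.3% in Themis+/+ libraries. Methionine in numbers 5 and 6 lay at 14.6% and 15.1%, 16.6% and 13.9%, 16.6% and 13.5%, and 15.3% and 16.7% in the same order, and neither the genotypes nor the tissues, 4 libraries each, kept apart. Over all the segments, hydrophobic residues at position 5 made up 22.8% ± 1.7 of clonotypes in LN and 25.0% ± 1.3 in thymus (difference -2.23 percentage points, exact permutation test, 4 against 4, p = 0.0571, adjusted p = 0.457). Acidic residues, aspartate and glutamate together, made up 26.3% ± 1.4 in LN and 24.4% ± 1.7 in thymus (exact p = 0.143, adjusted p = 0.457). By genotype they made up 25.4% ± 2.5 in Themis-/- and 25.2% ± 0.9 in Themis+/+ libraries (exact p = 0.886). Among CDR3s of exactly 14 residues the acidic share was instead lower in LN, by 1.63 percentage points, and the hydrophobic share higher, by 3.84 points. Between genotypes the acidic share in these CDR3s was lower in Themis-/- libraries (difference -7.11 percentage points, exact permutation test, 4 against 4, p = 0.0571, adjusted p = 0.183).

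Hydropathicity was scored as the Kyte-Doolittle sum over the residues of 14-residue CDR3s, the V-encoded start included, and a higher sum means a more hydrophobic loop. For the segments together it was 3.48 and 2.62 in Themis+/+ thymus, 2.71 and 3.13 in Themis-/- thymus, 1.93 and 1.44 in Themis+/+ LN, and 4.11 and 2.38 in Themis-/- LN. The Themis+/+ LN libraries were the lowest of the 8 and overlapped no other group. Over both tissues the mean was 3.08 ± 0.75 in Themis-/- and 2.37 ± 0.88 in Themis+/+ libraries (difference 0.72, exact permutation test, 4 against 4, p = 0.257, adjusted p = 0.343), and weighted by reads the difference turned to -0.93. Over both genotypes it was 2.47 ± 1.16 in LN and 2.98 ± 0.39 in thymus (exact p = 0.400, adjusted p = 0.457), a difference of -0.52 that was -2.13 weighted by reads.

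**Figure D2:**
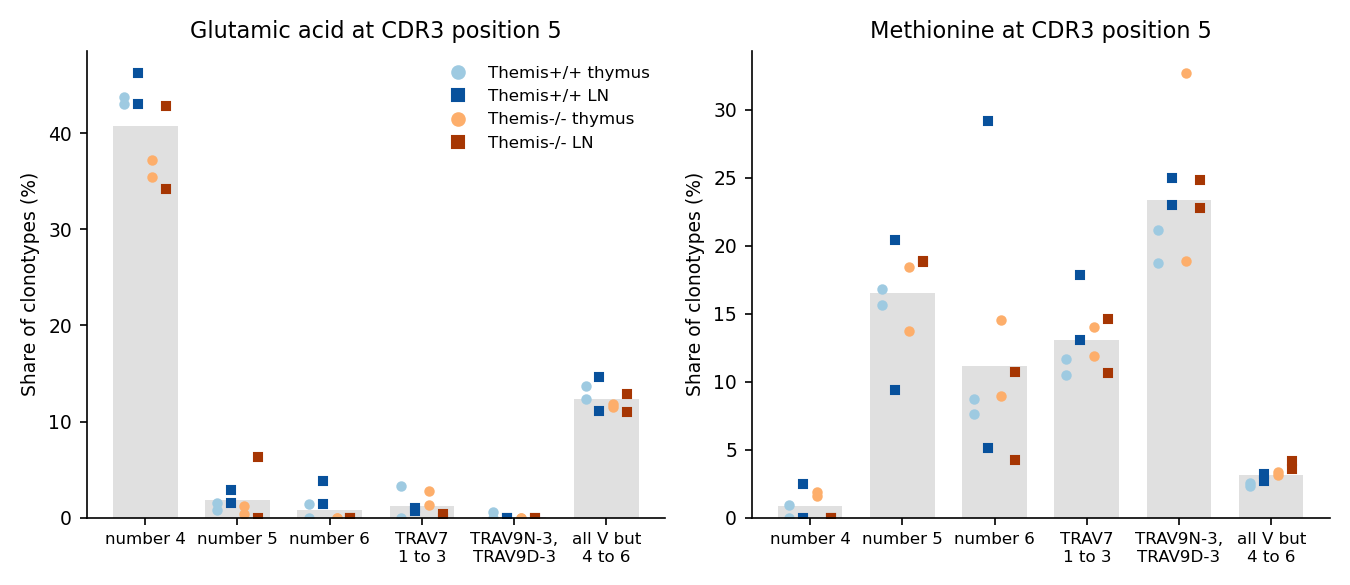
Share of clonotypes (%, vertical axes) with a given residue at CDR3 position 5, by set of V segments, 1 point per unsorted library with marker and colour for the 4 groups. Glutamate is high in number 4 in all 8 libraries (34.2% to 46.2%). Methionine lies between 9.39% and 20.4% in number 5 and between 4.255% and 29.17% in number 6. In all V segments outside the 9 it lies between 2.325% and 4.188%.

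Number 4 was next set against numbers 5 and 6 within each library, a contrast chosen after the values had been seen. Acidic residues at position 5 made up 56.1% ± 5.1 of number 4 and 5.81% ± 1.39 of number 5 and 6 clonotypes, and hydrophobic residues 11.7% ± 3.0 and 31.7% ± 1.0. The CDR3s of number 4 were longer, at 41.9 ± 0.4 against 39.5 ± 0.3 bases. Hydropathicity was 0.288 ± 0.786 for number 4 and 4.64 ± 1.15 for numbers 5 and 6. Reads per clonotype were 7.85 ± 2.61 and 11.8 ± 2.5. Each of these 5 differences had the same direction in 8 of 8 libraries (exact two-sided sign-flip permutation test over libraries, adjusted p = 0.0094 over 6 measures, the smallest raw p it can give being 0.0078). The germline ends of the segments already differ in codon 5 and in length. For position 5, CDR3 length and hydropathicity the direction was therefore largely given beforehand, and the p-value adds no support there. Weighting by reads left a hydropathicity difference of -2.99 (adjusted p = 0.0938). The mean TRAJ number was 26.8 ± 1.8 for number 4 and 28.3 ± 2.6 for numbers 5 and 6, lower in 6 of 8 libraries (exact sign-flip permutation test, adjusted p = 0.0391). Taken apart, number 5 stood at 27.45 ± 2.45, close to number 4, and number 6 at 31.52 ± 3.72. The call was lost in clonotypes of more than 1 read and at equal depth (adjusted p = 0.0547 and 0.0625, exact test). It was also lost on leaving out any 1 library other than the Themis-/- LN libraries (adjusted p up to 0.0781, exact test).

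**Figure D3:**
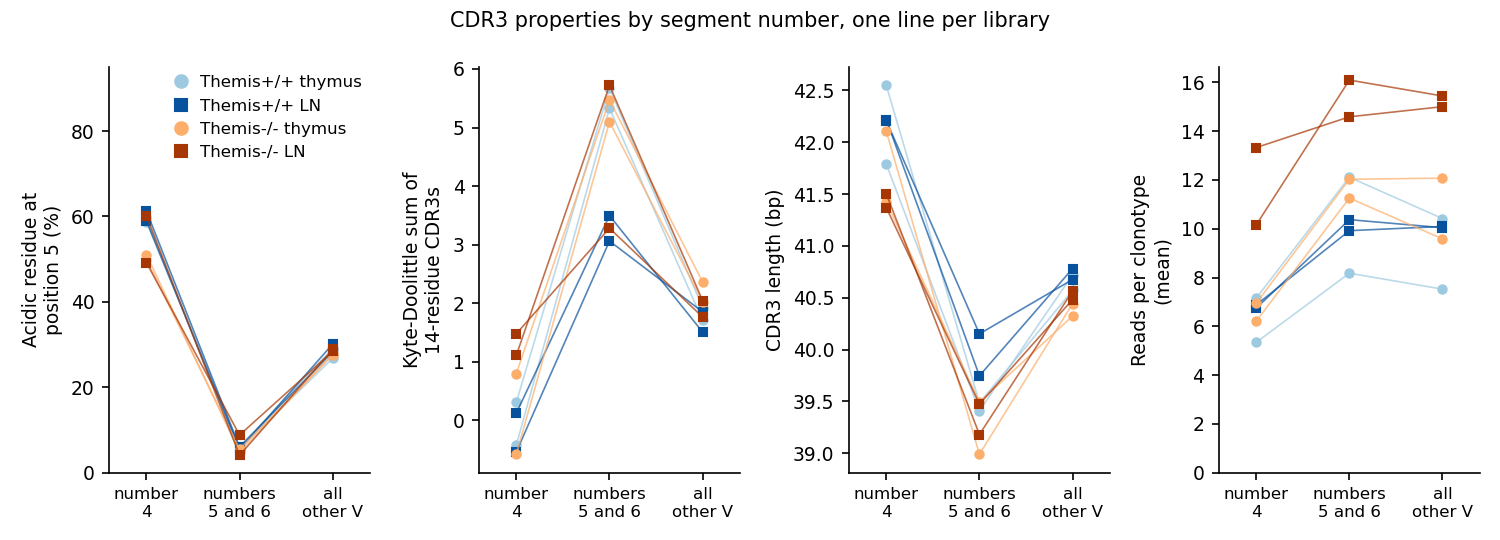
CDR3 properties of number 4, numbers 5 and 6, and all other V segments, with 1 line per unsorted library joining its 3 values. In every library number 4 has longer CDR3s and lower hydropathicity than numbers 5 and 6, with means of 41.9 against 39.5 bases and of 0.288 against 4.64.

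Taken as 1 set, the segments lay nearer to the rest of the repertoire, with number 4 and numbers 5 and 6 on either side of it in acidic share and hydropathicity. Acidic residues at position 5 made up 25.3% ± 1.7 of their clonotypes and 28.4% ± 1.0 of all others, lower in 8 of 8 libraries (exact sign-flip permutation test, adjusted p = 0.0234 over 6 measures). In 14-residue CDR3s alone that call was lost, at a difference of -5.38 percentage points (adjusted p = 0.102, exact test), and weighted by reads the difference was -8.94 (adjusted p = 0.0234, exact test). Hydropathicity was 2.73 ± 0.85, above that of all others by 0.83 ± 0.74, and higher in 7 of 8 libraries (adjusted p = 0.0312 by the same exact test), but that call was lost on the Eisenberg scale (adjusted p = 0.178) and with clonotypes weighted by reads (adjusted p = 0.159). It was also lost on leaving out any 1 library but Themis-/- thymus replicate 1 or Themis+/+ LN replicate 2 (adjusted p up to 0.0625, exact test). Acidic share and hydropathicity also depend on the germline ends and on the mix of numbers in the set. The part of these in both differences was not tested. Hydrophobic residues at position 5 stood at 23.9% ± 1.8 and 23.6% ± 0.9 (exact p = 0.766). CDR3 length was 40.4 ± 0.3 and 40.6 ± 0.2 bases (exact p = 0.102). Joints with no inserted base made up 34.3% ± 3.0 of their clonotypes and 33.8% ± 1.6 of all others. Of the CDR3s, 38 of 6557 (0.58%) did not begin with cysteine.

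J partners came from along the whole TRAJ array. The most used were TRAJ31 (5.89% ± 1.49 of clonotypes), TRAJ21 (5.89% ± 1.28), TRAJ22 (5.67% ± 1.43), TRAJ23 (5.35% ± 1.11) and TRAJ12 (5.24% ± 2.26). All but TRAJ12 lie in the middle of the array, and TRAJ21 to TRAJ35 together took 48.1% ± 3.5 of these clonotypes against 42.8% ± 1.4 of all others. TRAJ21 was above its share among the other V segments (4.24% ± 0.55) in 7 of 8 libraries.

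The V-proximal end of the array was used less than by other V segments. TRAJ48 to TRAJ61 took 10.02% ± 2.44 of these clonotypes against 15.1% ± 4.1 of all others. TRAJ56, at 0.862% against 1.81%, and TRAJ49, at 2.37% against 4.37%, had the lowest and second lowest ratios among J segments with at least 10 clonotypes, and both were below the other V segments in 8 of 8 libraries. TRAJ5, from the opposite end, came next, at 0.305% against 0.561%. The highest ratios were those of TRAJ28 (1.23% against 0.636%, 7 of 8 libraries), TRAJ35 (1.69% against 1.17%, 5 of 8) and TRAJ13 (2.88% against 2.04%, 5 of 8). The numbers differed here too, with TRAJ48 to TRAJ61 taking 18.03% ± 8.40 of number 6, 10.5% ± 3.5 of number 5 and 6.37% ± 3.21 of number 4 clonotypes. These J shares are a description, with no test.

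Over the 8 segments, the mean TRAJ number ran from 34.1 ± 3.8 for TRAV7-6, the nearest to the J array, to 23.8 ± 5.6 for TRAV7N-5. Its correlation with the distance from TRAJ61 was r = -0.796 across the 8 segments, which share the same 8 libraries. TRAV7D-5 and TRAV7N-5 entered it as separate points, although their rows cannot be told apart with certainty. The segments as a set had a mean TRAJ number of 27.8 ± 2.2, against 28.8 ± 2.8 for all other V segments (lower in 7 of 8 libraries, exact sign-flip permutation test, adjusted p = 0.0586).

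The mean TRAJ number was lower in every Themis-/- library. It was 26.2 and 26.3 in the Themis-/- thymus libraries, 24.8 and 26.6 in Themis-/- LN, 28.3 and 31.4 in Themis+/+ thymus and 30.3 and 28.2 in Themis+/+ LN. All 4 Themis-/- libraries lay below all 4 Themis+/+ libraries, with means of 26.0 ± 0.8 and 29.5 ± 1.5 (exact permutation test, 4 against 4, p = 0.0286, the smallest it can give, adjusted p = 0.229 over 8 measures). All other V segments moved likewise, at 25.7 to 27.8 in Themis-/- and 28.3 to 33.4 in Themis+/+ libraries. Within a tissue, 2 libraries against 2 cannot go below an exact p of 0.333. TRAJ12, near the far end, took 3.07% of clonotypes in Themis+/+ thymus, 5.81% in Themis-/- thymus, 4.01% in Themis+/+ LN and 8.07% in Themis-/- LN.

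Lower mean TRAJ numbers in every Themis-/- library than in any Themis+/+ library were found for 3 of the 8 segments, against 14.7% of 102 V segments. Among the 3, TRAV7D-5 and TRAV7N-5 cannot be told apart with certainty, so the 3 are not independent of each other. For TRAV7D-4 the ranges were 23.3 to 26.0 and 27.1 to 29.1, for TRAV7D-5 20.9 to 22.2 and 26.4 to 32.2, and for TRAV7N-5 17.1 to 23.6 and 25.3 to 32.3. TRAV7-5, the most used segment, did not show this order, at 29.6 to 32.5 in Themis-/- and 27.6 to 31.7 in Themis+/+ libraries, with means of 30.6 ± 1.3 and 30.1 ± 1.8. TRAV7-4, TRAV7-6, TRAV7N-4 and TRAV7N-6 overlapped between genotypes. Weighted by reads, the difference for TRAV7-5 was 3.34 upwards in Themis-/- libraries.

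**Figure D4:**
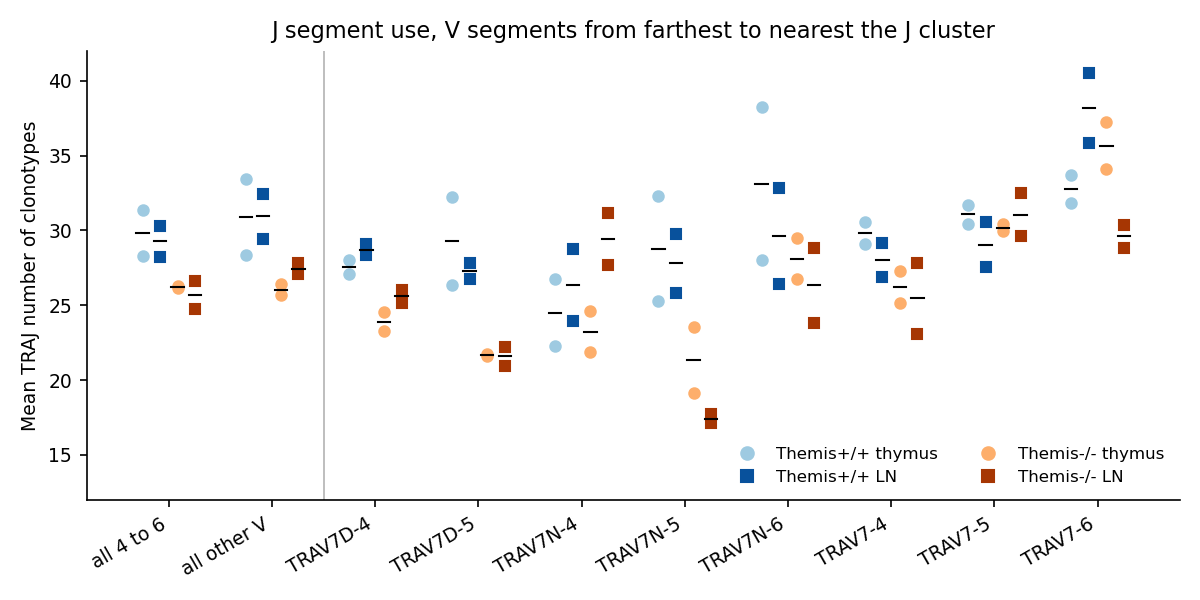
Mean TRAJ number of clonotypes (vertical axis, which does not start at 0) for the TRAV7 segments numbered 4 to 6 together, all other V segments, and each segment, 1 point per unsorted library with marker and colour for the 4 groups. The 4 Themis-/- libraries lie below the 4 Themis+/+ libraries for TRAV7D-4, TRAV7D-5 and TRAV7N-5, and overlap them for TRAV7-5. Rows of TRAV7D-5 and TRAV7N-5 cannot be told apart with certainty.

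Clone size, the reads of a clonotype, differed among the copies. TRAV7N-5 clonotypes held 22.5 ± 6.8 reads on average (SD, n = 8 libraries), and 3.26% ± 2.69 of them were seen in a single read. TRAV7D-5 clonotypes held 3.94 ± 0.67 reads, with 32.1% ± 3.6 in a single read. As every TRAV7D-5 row was a tie with TRAV7N-5 and no TRAV7N-5 row was tied, the difference between these copies came with a difference in how rows were assigned, and the part of assignment in it was not tested. TRAV7-6 held 11.9 ± 6.3, TRAV7-5 11.1 ± 2.4, TRAV7N-6 11.04 ± 2.31, TRAV7D-4 9.07 ± 3.28, TRAV7-4 6.07 ± 1.69 and TRAV7N-4 5.26 ± 1.62 reads per clonotype.

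As a set the segments held 10.3 ± 2.4 reads per clonotype against 11.3 ± 2.7 for all other V segments, lower in 8 of 8 libraries (exact sign-flip permutation test, adjusted p = 0.0234). Without single-read clonotypes the adjusted p was 0.0563. The 2 Themis-/- LN libraries stood apart, at 13.7 and 14 reads per clonotype against 7.14 to 10.4 in the other 6, and so did the other V segments there, at 15.4 and 15. Themis-/- and Themis+/+ libraries as wholes overlapped (11.7 ± 2.5 and 8.84 ± 1.32, exact permutation test, p = 0.143, adjusted p = 0.229).

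Large clones followed the same split. Clonotypes above 0.1% of their library's reads numbered 14 and 9 in Themis-/- LN, where they held 35.01% and 20.75% of these segments' reads, and 1 to 7 in the other 6 libraries. All other V segments did likewise, with 35.09% and 24.87% of their reads in such clonotypes in Themis-/- LN and 2.403% to 21.25% in the other 6 libraries. The 10 largest clonotypes held 28.2% and 22.1% of these segments' reads in Themis-/- LN and 7.60% to 15.2% elsewhere. These segments had 329 and 402 clonotypes in Themis-/- LN, the fewest of the 8 libraries, so a set of 10 is a larger part there. Thinned to 57455 reads, the number of clonotypes above 0.1% was 14 and 9 in Themis-/- LN and again 1 to 7 elsewhere.

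The largest clonotype of these segments in each library never used number 4. The 8 used TRAV7-5 (4 libraries), TRAV7N-5 (3) and TRAV7N-6 (1), with 8 different J segments and 99 to 266 reads. Of these, 2 had methionine at position 5, in Themis-/- thymus replicate 1 (157 reads, 0.107% of the library, TRAV7-5 with TRAJ32) and in Themis+/+ LN replicate 1 (158 reads, 0.126%, TRAV7N-6 with TRAJ22). The largest of the 8 by share was that of Themis-/- LN replicate 1, TRAV7-5 with TRAJ42, at 215 reads or 0.322%. Among all clonotypes of that library it had rank 13. These 3 are shown with codon 5 in capitals.
TRAV7-5 with TRAJ32: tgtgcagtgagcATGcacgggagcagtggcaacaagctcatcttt
TRAV7N-6 with TRAJ22: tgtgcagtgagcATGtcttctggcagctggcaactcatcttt
TRAV7-5 with TRAJ42: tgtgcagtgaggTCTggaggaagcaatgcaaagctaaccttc
The first and second matched the whole germline end before the t and g of atg, while the TRAJ42 sequence departed from it within the fourth codon. The largest of these segments' clonotypes in Themis-/- LN replicate 2, TRAV7N-5 with TRAJ17 at 211 reads, did not begin with cysteine.

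Sharing between libraries was low. Of 4807 different CDR3 amino acid sequences, 548 (11.4%) occurred in at least 2 of the 8 libraries and none in all 8, against 17.7% of the 44569 of all other V segments. The other V segments are a larger set, with more sequences to share. The 5 found in most libraries are shown by their most read nucleotide sequence, again with codon 5 in capitals.
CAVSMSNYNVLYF, TRAJ21, 7 libraries: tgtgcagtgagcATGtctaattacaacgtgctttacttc
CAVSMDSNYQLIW, TRAJ33, 6 libraries: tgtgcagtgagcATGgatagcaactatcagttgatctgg
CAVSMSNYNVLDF, TRAJ21, 6 libraries: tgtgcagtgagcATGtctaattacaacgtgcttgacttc
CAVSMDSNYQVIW, TRAJ33, 5 libraries: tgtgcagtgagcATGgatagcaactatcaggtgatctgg
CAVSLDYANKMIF, TRAJ47, 5 libraries: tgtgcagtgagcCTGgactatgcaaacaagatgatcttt
All 5 had 13 residues, and 4 of the 5 had methionine at position 5. The sequences shown began with tgtgcagtgagc, which the germline ends of numbers 5 and 6 share with other TRAV7 segments. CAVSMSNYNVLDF and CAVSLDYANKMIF were also listed under TRAV7N-4. The 5 were minor clones, at 0.162% to 0.421% of these segments' reads on average and 1.46% at most in 1 library. All were also listed in 2 to 5 libraries under V segments outside the 9, among them TRAV3 and TRAV9 segments.

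The 5 held 2 pairs that differed by 1 base, T34G for both TRAJ21 sequences and T31G for both TRAJ33 sequences, counted from 1 at the first base of the cysteine codon. The TRAJ21 sequence with the G was found in 6 libraries, all of which also held its partner, with 1.18 to 3.40 partner reads per read. The TRAJ33 sequence with the G was found in 5 libraries, 4 of which held its partner, at 1.44 to 3.14. Whether these bases were present in the RNA was not tested.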

How the data were processed

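TCR alpha transcripts of sorted CD8 T cells were amplified by the authors by template-switch 5′ RACE with a constant-region primer, sequenced on a MiSeq and assembled with MiXCR (its version was not given in the sources used here). Beyond that, the submitters' processing notes also name CASAVA 1.4 and mm9, while all coordinates printed are those of the GRCm38 annotation and none was converted. Each deposited table lists CDR3 sequences with their raw read count and the fraction of the library that it makes up; the fraction was used only as a check of the counts. Read counts and numbers of distinct CDR3 sequences were summed by best V hit and tested with edgeR 4.0.16 (quasi-likelihood, TMM, at least 10 in at least 2 libraries) in 1 fit of the 8 unsorted libraries with 4 group means, in R 4.3.3, with Benjamini-Hochberg adjustment over all V segments and calls at adjusted p under 0.05. On read counts simulated for LN, the test called 10 of 20 segments changed by 1 log2 unit, with 2 unchanged segments also called. It called 19 of 20 changed by 2, with 0 unchanged. The simulation gave every segment the same dispersion of 0.05. In the data, the SEs of the 8 segments' log2 fold changes in LN reads ran from 0.35 to 1.14. The simulated rates therefore do not give the power for these segments. Other measures were compared by exact permutation over libraries, in Python 3.11.15 with scipy 1.17.1. Alternatives were DESeq2 1.42.0, no filter, thinning, merged copies, a replicate block and leaving out each library. Members, lists and tests were chosen with earlier results of these data known. All 9 segments were named, with the 5 most used J segments, the 3 with the highest and the 3 with the lowest ratio to other V segments, the 5 most shared CDR3s and these segments' largest clonotype in each library.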

Additional observations from a re-analysis of the deposited data

Results flagged for a closer look

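In the 8 sorted Va3.2+ libraries (10338 to 25247 reads), which no comparison used, reads of the TRAV7 segments numbered 4 to 6 exceeded the floor of 3 counts in 2. In Themis-/- LN Va3.2 replicate 1, 6 reads were found in 1 TRAV7-5 clonotype, 0.0238% of 25247 reads, where 3 counts make 0.0119%. In Themis+/+ LN Va3.2 replicate 1, 6 reads were found in 3 TRAV7D-5 clonotypes, 0.0252% of 23766 reads, where 3 counts make 0.0126%, and 1 of the 3 sequences was also in an unsorted library. The other 6 sorted libraries held 0 to 2 such reads. The floors cover counting error only.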

How the results depend on the processing

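Of 803 pairs of a result with an alternative, 700 were counted as unchanged. For tested results this meant the same direction and side of the threshold. Counts of calls, also those over all V segments, had to stay within a set ratio of the main count. Untested values had to move by less than their spread. The single call, TRAV7-5 clonotypes in LN, was kept by DESeq2 (-0.78) and without a filter (-0.77), and the number of segments called fell to 0 with merged copies (TRAV7-5 at -0.392), a replicate block (-0.74, edgeR adjusted p = 0.0627), that block in the 4 LN libraries (-0.823) and thinning (-0.665). Leaving out 1 library gave 0 to 1 calls and log2 fold changes from -0.906 to -0.654. Correlations of same-numbered libraries' deviations ran from -0.37 to 0.17, so no pairing by number was seen. What the replicate numbers mark is not given, and whether libraries with different numbers share an experiment was not tested. Crossing the block called 11 V segments in LN against 0 uncrossed.

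Weighting by reads gave hydropathicity differences of -0.9343 between genotypes, which was reversed from 0.72, and 0.8018 from other V segments. In 14-residue CDR3s alone, acidic shares differed by -1.634 percentage points between tissues, -7.113 between genotypes and -5.379 from other V segments, and hydrophobic shares by 3.835 and 0.4764, and the tissue and genotype values were reversed. Without single reads, reads per clonotype differed from other V segments by -1.07. Over the omissions of 1 library, 4 results changed sign: the mean TRAJ number between tissues (-1.477 to 0.5639), the acidic share between genotypes (-0.4812 to 1.42), and the hydrophobic share between genotypes (-1.927 to 0.1691) and against other V segments (-0.1286 to 1.019). Against other V segments the omissions gave 0.6487 to 1.002 for hydropathicity, with the call lost in 6 of 8, and -1.298 to -0.8944 for the mean TRAJ number, which was called without Themis-/- thymus replicate 1 (exact test, adjusted p = 0.0312). The lower TRAJ number of number 4 lost its call in 6 of 8. The cause of these changes was not tested. With 2 libraries a group, only differences large beside their spread can be called.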
